A study of Rattus norvegicus with 20 samples.

Results

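The genes described here build the motile cilium, the beating organelle of the ependymal cells that line the brain ventricles. They were chosen by symbol: axonemal dynein heavy and intermediate chains (Dnah, Dnai), radial spoke proteins (Rsph), nexin-dynein regulatory complex proteins (Drc), tektins (Tekt), numbered cilia and flagella associated proteins (Cfap), the central apparatus genes Hydin, Spag6, Spag16 and Spag17, the ruler genes Ccdc39 and Ccdc40, and Tsnaxip1. A mean count of at least 10 over the 20 libraries was also required. Of 32883 genes listed, 61 carried such a symbol and 57 reached that mean, so 57 genes are the members. All 57 also passed the low-count filter that left 15272 genes for testing. Just inside the limit were Cfap157, with a mean count of 14.6, and Rsph6a, with 14.8. Just outside were Spag16, with 6.70, and Spag6, with 1.20, and Rsph4a and Cfap58 were nearly uncounted. The rule used no difference between groups. Foxj1, the transcription factor that switches on the motile cilia genes, is named by the rule but was not analysed here.

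The hippocampus of Gunn rat pups was dissected at postnatal day 6, and polyA RNA of a single lobe was sequenced. The Gunn strain carries a defective Ugt1a1 gene, so that animals with 2 defective copies cannot conjugate bilirubin. All 4 groups of 5 libraries are Gunn rats: untreated Nj pups (heterozygous, labelled Jj, not jaundiced), untreated jj pups (homozygous, jaundiced), and Nj and jj pups that received phototherapy. Treated pups were under intermittent LED light between day 4 and day 6, 12 hours in total in spells of 3 hours. The untreated controls therefore also carry the Gunn allele, and no wild-type group was analysed here.

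A motile cilium has an axoneme in which doublet microtubules surround a central pair. Outer and inner dynein arms slide the doublets against each other, radial spokes carry signals from the central apparatus to the arms, and the nexin-dynein regulatory complex links neighbouring doublets and limits sliding. Ependymal cells arise from radial glia and grow their cilia in the days after birth in rodents. The neighbouring choroid plexus epithelium, which makes cerebrospinal fluid, also bears cilia and uses part of the same genes.

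The hippocampal markers Prox1, of dentate granule cells, and Neurod6, of pyramidal cells, were present in every library, at 89.4 to 135 and 218 to 362 CPM (counts per M counts of the library, M for mega). Fibcd1, a marker of field CA1, reached 2.47 CPM at most and was at 0 in at least 1 library. Library totals ran from 16.9 to 27.1 M counts, of which the members together took 11562 to 23224 counts. Ttr, the transthyretin gene of choroid plexus, ran from 3.57 to 9662 CPM. It was above 1000 CPM in 7 libraries, untreated Nj 3, untreated jj 3, treated Nj 2 and 5, and treated jj 2, 4 and 5, which are called the Ttr-rich libraries below. By their title prefixes, untreated Nj libraries carry J13 (1 library), J14 (1) or J15 (3), untreated jj libraries J17 and all treated libraries J18. Prefix and group therefore cannot be told apart except between the treated groups. The labels give no replicate numbers; libraries are numbered within a group in the order of deposit.

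RFX factors, which act together with Foxj1, are known to bind promoters of ciliary genes, so the members' promoters were searched. Promoter sequence (250 bases before to 50 after the annotated start, RefSeq, build GRCr8) was found for 50 of the 57 members. The long RFX motif, an inverted repeat of GTTNCC with 2 free bases between its arms, was searched on both strands like the others. It occurred in 1 of the 50 (2%), Cfap298, and in 0.488% of 27457 promoters in the table. The shorter core GTTGCCA, whose letters can also lie inside a long match, occurred in 10 of 50 (20%) against 4.86% of all promoters. These were Cfap161, Cfap20, Cfap298, Cfap44, Dnah11, Dnah2, Drc1, Hydin, Tekt1 and Tsnaxip1. The forkhead letters GTAAACA occurred in 3 of 50 (6%), Cfap20, Cfap43 and Tekt3, against 4.13%. A match describes letters and shows no binding. Shown are the Cfap298 promoter, the only member with the long motif, and those of Tsnaxip1, Hydin and Drc1. Those 3 were picked after their values were seen, and all are among the 10 with the shorter core. Other genes that figure in the results below, such as Cfap126, Dnah1 and Drc7, are not among the 10. Capitals mark the motif matches, the long motif and the shorter core in Cfap298 and the core, here on the reverse strand, in the others. Each sequence is given 5′ to 3′ in the direction of its gene.
Cfap298, chr11:43677333-43677632, minus strand: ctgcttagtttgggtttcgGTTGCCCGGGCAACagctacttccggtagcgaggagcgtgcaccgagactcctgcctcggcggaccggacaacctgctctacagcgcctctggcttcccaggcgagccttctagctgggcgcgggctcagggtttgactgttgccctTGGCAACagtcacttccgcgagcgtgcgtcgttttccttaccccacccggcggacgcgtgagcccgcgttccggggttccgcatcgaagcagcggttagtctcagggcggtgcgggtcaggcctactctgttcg
Tsnaxip1, chr19:50626670-50626969, plus strand: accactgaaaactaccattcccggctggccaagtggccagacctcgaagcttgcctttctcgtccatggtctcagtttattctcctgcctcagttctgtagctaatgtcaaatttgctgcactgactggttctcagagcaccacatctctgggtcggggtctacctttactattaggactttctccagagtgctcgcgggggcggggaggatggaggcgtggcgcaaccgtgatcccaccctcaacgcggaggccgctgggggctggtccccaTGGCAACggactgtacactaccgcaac
Hydin, chr19:55146216-55146515, plus strand: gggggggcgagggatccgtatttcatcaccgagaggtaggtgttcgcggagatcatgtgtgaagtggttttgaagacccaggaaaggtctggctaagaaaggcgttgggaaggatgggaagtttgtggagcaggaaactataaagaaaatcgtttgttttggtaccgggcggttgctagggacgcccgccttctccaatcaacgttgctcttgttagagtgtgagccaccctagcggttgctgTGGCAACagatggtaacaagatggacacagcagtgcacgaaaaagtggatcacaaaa
Drc1, chr6:31779207-31779506, minus strand: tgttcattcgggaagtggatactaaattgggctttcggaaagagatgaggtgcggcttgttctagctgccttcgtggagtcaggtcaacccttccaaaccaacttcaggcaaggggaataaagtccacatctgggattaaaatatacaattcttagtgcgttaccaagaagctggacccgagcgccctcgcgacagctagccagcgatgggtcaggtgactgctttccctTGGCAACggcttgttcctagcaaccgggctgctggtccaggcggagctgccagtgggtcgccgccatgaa
The long match of Cfap298 started 231 bases before the annotated start, and its separate core match 84 bases before it. The core lay 7 bases before the start in Hydin and 20 before it in Drc1. In Tsnaxip1 it lay 23 bases after it.

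Across the 20 libraries the motile cilia genes went up and down together. The members' mean log2 CPM was 3.07 ± 0.09 (SD, n = 5) in untreated Nj, 2.94 ± 0.27 in untreated jj, 2.90 ± 0.22 in treated Nj and 3.14 ± 0.25 in treated jj pups. The highest libraries were treated jj 2 at 3.54, untreated jj 3 at 3.40, treated Nj 5 at 3.26 and untreated Nj 3 at 3.20, and treated jj 4 and 5 followed at 3.16 and 3.12. Each of these 6 was Ttr-rich, and they lay in all 4 groups. The seventh Ttr-rich library, treated Nj 2, ranked only 14 of 20, at 2.88. Lowest were treated Nj 1 at 2.69 and untreated jj 2 at 2.70. The groups overlapped widely. In bulk RNA, fewer ciliated cells and less RNA per cell cannot be told apart.

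**Figure D1:**
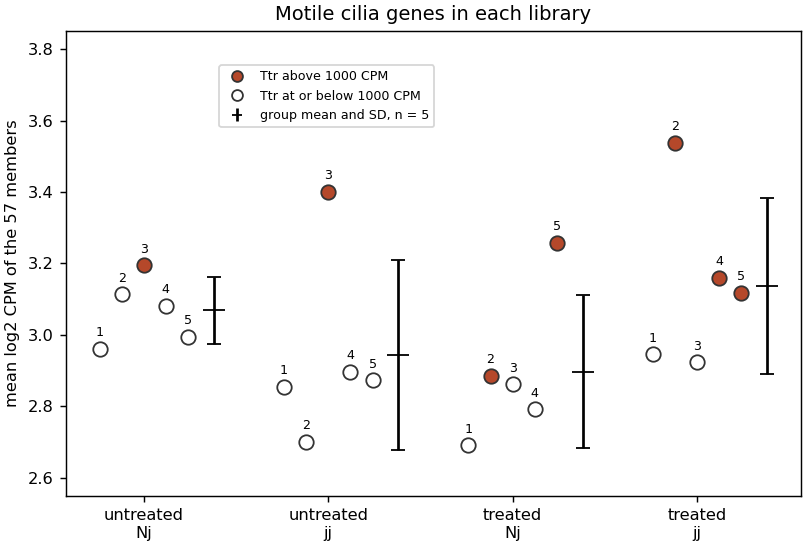
Mean log2 CPM of the 57 members (vertical axis) in each library, by group, with the replicate number above each point; filled points have Ttr above 1000 CPM and bars give the group mean and SD (n = 5). The 6 highest libraries, 3.12 to 3.54, are all filled.

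Single members repeated this pattern. Treated jj 2 was the highest library for 30 members and untreated jj 3 for 13. Within groups, the median SD of log2 CPM was 0.30 for the members and 0.13 for all 15272 genes. The ratio of the highest to the lowest library ran from 1.14-fold to 9.29-fold. Hydin, a large protein of the central apparatus, stood at 29.2, 35.9, 42.3, 42.6 and 31.9 CPM in untreated Nj and at 27.3, 23.8, 58.2, 34.7 and 29.5 CPM in untreated jj pups. It stood at 23.5, 30.7, 25.2, 22.1 and 43.5 CPM in treated Nj and at 27.6, 51.8, 32.7, 41.9 and 39.2 CPM in treated jj pups. Its 7 highest libraries were Ttr-rich apart from untreated Nj 4, and its 4 groups overlapped.

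After group means were taken out, the correlation of each member with the mean of the others over the 20 libraries had a median of 0.77, given as a description without a test. It was highest for Spag6l (0.94), a central apparatus gene. Spag6l is close in sequence to Spag6, and reads could be divided between copies. The 4 members below 0 were Cfap97 at -0.54, Cfap36 at -0.23, and the dynein heavy chains Dnah8 at -0.04 and Dnah17 at -0.03. Cfap97 and Cfap36 are known as widely expressed outside motile cilia, but so are Cfap298, at 0.82, Cfap20, at 0.59, and Cfap410, at 0.35. Outside the rule and the fixed lists, the 10 genes most like the members over these 20 libraries were Fhad1 (0.96), Rgs22 (0.93), RGD1561916 (0.93), Cd9 (0.91), Ccdc190 (0.91), Tjp3 (0.91), Fam183a (0.91), AABR07020879.1 (0.91), AABR07030823.1 (0.90) and Ss18 (0.90). These libraries share their dissection and depth, and the values carry no test.

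**Figure D2:**
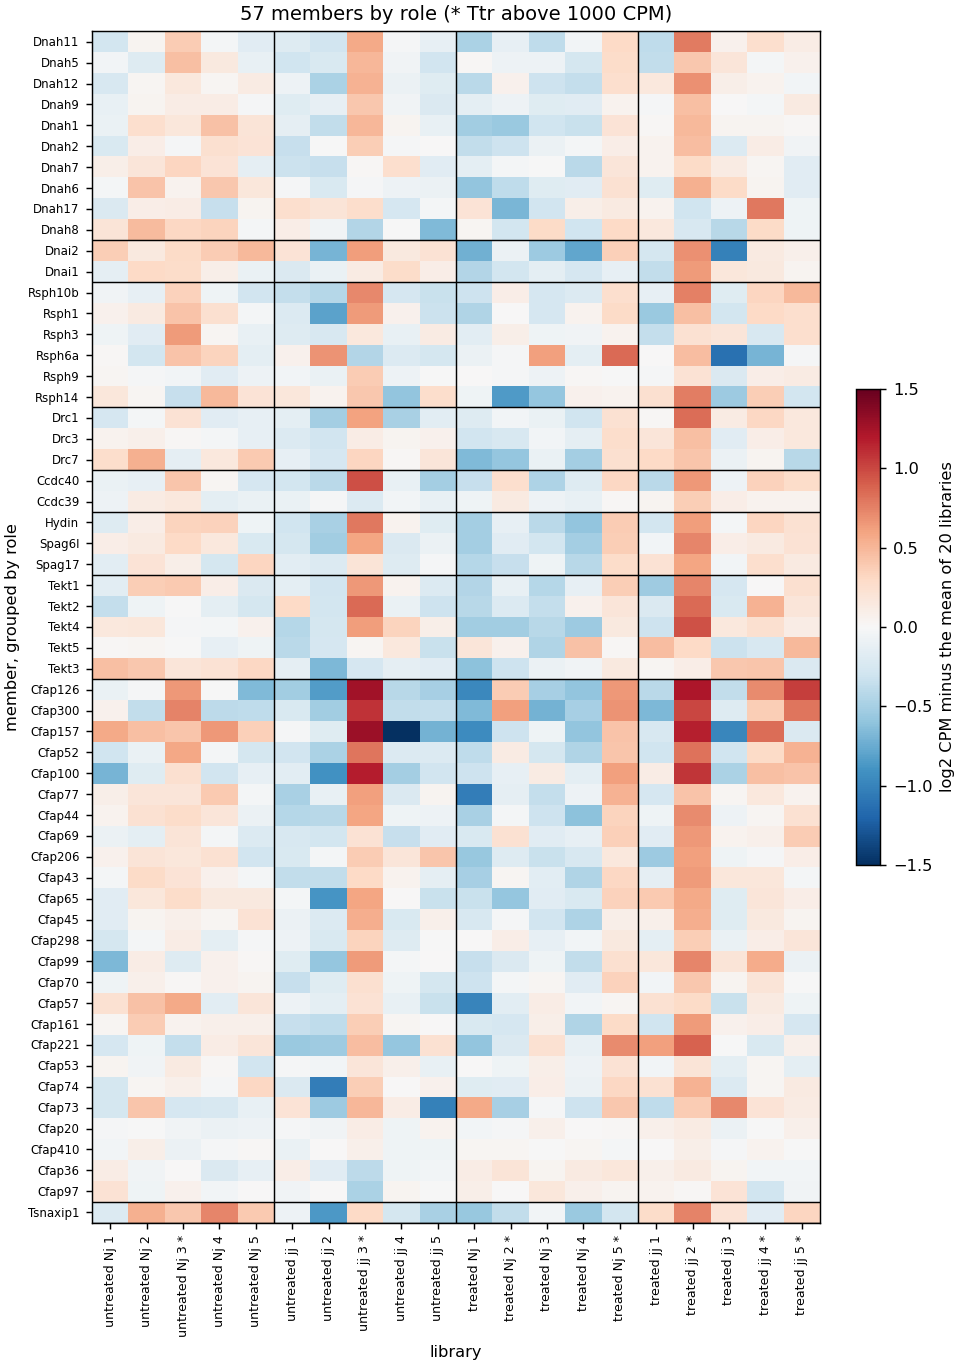
Log2 CPM of each member minus its mean over the 20 libraries, with members in rows by role, libraries in columns by group and an asterisk for Ttr above 1000 CPM; colours saturate at 1.5. Untreated jj 3 and treated jj 2 are red over most rows, and Cfap36, Cfap97, Cfap20 and Cfap410 near the bottom are pale or run the other way.

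How far each member followed choroid plexus content was measured as its slope on a choroid plexus score, the mean log2 CPM of 20 choroid plexus genes, within groups. This slope was read after the data had been seen. Of 57 members, 21 had a positive slope past the threshold (edgeR quasi-likelihood test, Benjamini-Hochberg adjusted p under 0.05) and 0 a negative slope. Over all genes 5.57% had a positive and 0.897% a negative slope past that threshold. At an unadjusted p under 0.05 there were 30 members with a positive and 1 with a negative slope, beside 10.3% and 10% of all genes. The median slope was 0.07 for the members and -0.01 for all genes, in log2 units per unit of the log2 score, that is per doubling of choroid plexus level.

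Proteins of many parts of the axoneme were among the 21: the outer arm heavy chains Dnah5, Dnah9 and Dnah11, the spoke proteins Rsph1, Rsph9 and Rsph10b, the ruler Ccdc40, Drc1, the central apparatus genes Hydin and Spag6l, the tektins Tekt1 and Tekt2, and 9 Cfap genes. The steepest was Cfap126, known as Flattop and needed for basal body placement, at 0.37 (SE 0.03, edgeR adjusted p = 4.9e-08). It stood at 11.8, 12.5, 19.9, 12.6 and 7.99 CPM in untreated Nj, 8.84, 7.13, 30.3, 9.49 and 8.99 in untreated jj, 6.5, 16.6, 8.98, 8.4 and 19.98 in treated Nj, and 9.60, 29.4, 9.85, 20.8 and 26.1 in treated jj pups. All 7 Ttr-rich libraries were above every other library for this gene. Cfap126 was picked for its slope on a score that includes Ttr, so this separation is no further result. Cfap300, which takes part in dynein arm assembly, had a slope of 0.34 (SE 0.03), Cfap157 0.26 (SE 0.07) and Ccdc40 0.22 (SE 0.02). Hydin had a slope of 0.17 (SE 0.03). Slopes that did not pass included Tsnaxip1 at 0.04 (SE 0.04), Ccdc39 at 0.02 (SE 0.02), the inner arm heavy chain Dnah6 at 0.03 (SE 0.03), Drc7 at 0.00074 (SE 0.04), Tekt3 at -0.00099 (SE 0.04) and Cfap97 at -0.05 (SE 0.02).

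The slope calls rested on the Ttr-rich libraries. The score reached 5.50 over all 20 libraries but at most 3.04 among the other 13. Leaving out the Ttr-rich libraries thus also narrows the score, and calls become fewer for all genes. The loss of calls is therefore no result about the members. Among the other 13 libraries 0 of 57 members passed edgeR's test, where 0.71% of all genes passed. There were 0 members with a positive and 4 with a negative slope at an unadjusted p under 0.05, beside 6.69% and 4.35% of all genes. The members' median slope was -0.01, with 25 positive and 32 negative. Without untreated jj 3 the count was 12, beside 4.14% of all genes, and without both untreated jj 3 and treated jj 2 it was 9, beside 3.55% of all genes. Among neighbouring lists, 18 of 36 further ependymal and axoneme genes and 6 of 16 dynein arm assembly and docking genes had a positive slope past the threshold. For intraflagellar transport and BBSome genes, which primary cilia also use, the counts were 3 of 40 positive and 2 negative. Of the choroid plexus genes themselves, which define the score, 18 of 20 passed.

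**Figure D3:**
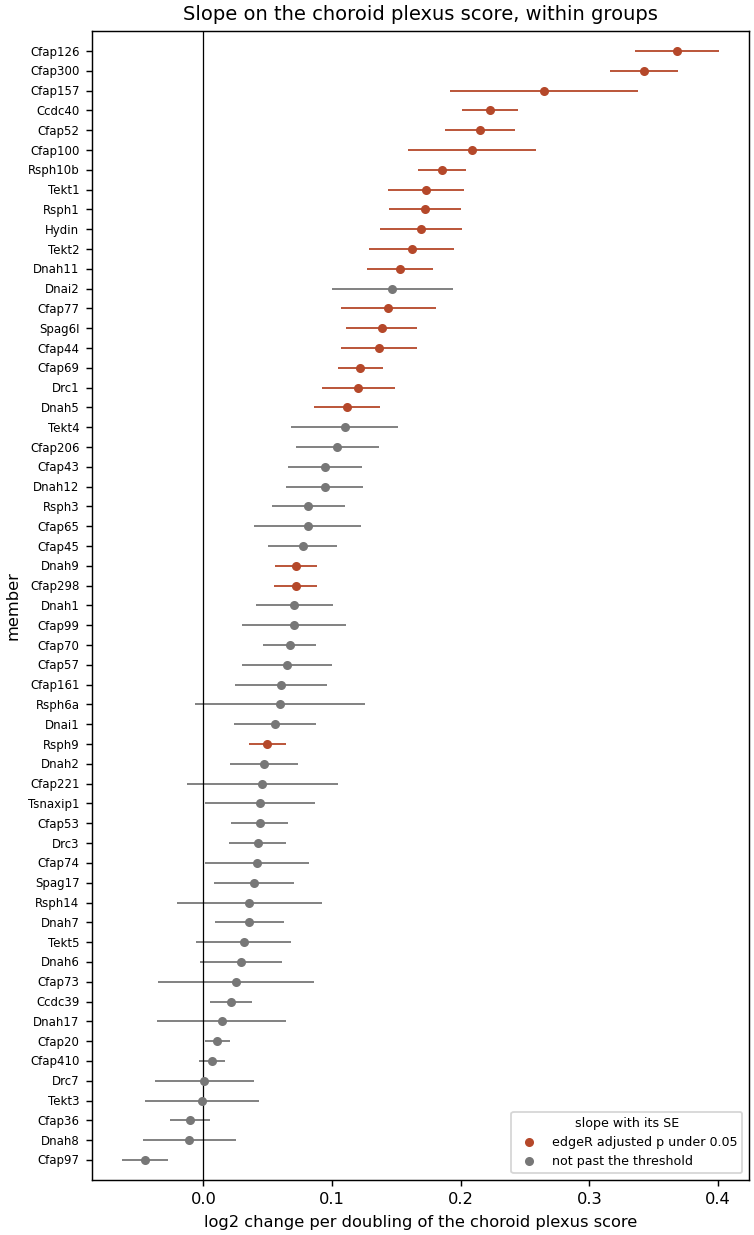
Slope of each member (rows) on the choroid plexus score, with its SE, in log2 units per unit of the log2 score, that is per doubling of choroid plexus level. Red points passed edgeR's adjusted p threshold. All 21 red points are positive, from Rsph9 at 0.05 to Cfap126 at 0.37.

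The comparison of jj with Nj pups without light asks what genotype goes with when no light was given. Title prefix also differs between these groups, so prefix and genotype cannot be told apart. No member passed the test in untreated pups: 0 of 57 were called by edgeR or by DESeq2, where edgeR called 0% of all 15272 genes and DESeq2 0.00439% of those it tested. The members' median log2 difference, jj minus Nj, was -0.07, with 42 negative and 15 positive, against 0.00 over all genes. At an unadjusted p under 0.05 there were 5 members lower and 0 higher, beside 2.67% lower over all genes. By lowest p these were Tsnaxip1, at a log2 difference of -0.62 (SE 0.20), Tekt3 at -0.57 (SE 0.19), Dnah8 at -0.45 (SE 0.16), Dnah6 at -0.30 (SE 0.14) and Cfap57 at -0.35 (SE 0.17), each with an edgeR adjusted p of 0.775.

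Tekt3, a tektin of the filaments along doublet microtubules, stood at 1.42, 1.37, 1.18, 1.21 and 1.29 CPM in untreated Nj and at 0.944, 0.648, 0.870, 0.949 and 0.922 CPM in untreated jj pups. Those ranges did not overlap, which held for 0.524% of all genes in that direction and for 1 of 57 members. Dnah8, a dynein heavy chain best known from sperm, stood at 6.42, 7.79, 6.93, 7.03 and 5.50 CPM in untreated Nj and 6.01, 5.42, 4.13, 5.59 and 3.55 CPM in untreated jj pups, with overlap. The choroid plexus list had a median difference of 0.35, with 19 of 20 genes positive. Its summed level ran from 72.1 to 4730 CPM in untreated Nj and from 63.4 to 10706 CPM in untreated jj pups. The 10706 CPM belonged to untreated jj 3. By the median library the level was lower in untreated jj pups, at 162 CPM, than in untreated Nj pups, at 559 CPM. No gene of that list was at 0 in any library. Meningeal genes had a median of 0.35. With the choroid plexus or the meninges score as a covariate, edgeR called 0 members and 0% of all genes. Apart from these fits and those that follow, the part of either list was not tested. Without the Ttr-rich libraries the members' median was -0.18, and without untreated jj 3 alone it was -0.24.

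Treated and untreated Nj pups were compared to ask what light goes with in the absence of jaundice. Title prefix differs here too, so prefix and light cannot be told apart. Tsnaxip1, named for its binding of translin-associated factor X, fell, and no other member passed: 1 of 57 was lower and 0 higher, beside 2.51% of all genes lower and 1.49% higher. The members' median log2 change was -0.12, with 42 negative and 15 positive, against 0.00 over all genes.

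Tsnaxip1 stood at 2.43, 4.03, 3.67, 4.62 and 3.65 CPM in untreated Nj and at 1.87, 2.16, 2.70, 1.90 and 2.29 CPM in treated Nj pups. The ranges overlapped, as untreated Nj 1 lay below treated Nj 3. Its log2 change was -0.74 (SE 0.20, edgeR adjusted p = 0.0396). The call was lost on leaving out untreated Nj 2, 3, 4 or 5 or treated Nj 1, 2, 4 or 5, with adjusted p between 0.0191 and 0.131 over the 10 libraries left out in turn and a log2 change between -0.86 and -0.65. It was also lost without the Ttr-rich libraries (log2 -0.76, adjusted p = 0.1103).

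At an unadjusted p under 0.05 there were 8 members lower and 1 higher, beside 9.89% and 8.25% of all genes. Among those that did not pass were Drc7 of the nexin-dynein regulatory complex (log2 -0.54, SE 0.18, edgeR adjusted p = 0.0846) and Dnah1, an inner arm heavy chain (log2 -0.47, SE 0.16, adjusted p = 0.0931). Dnah1 stood at 15.9, 20.2, 19.1, 23.0 and 19.5 CPM in untreated Nj and at 11.9, 11.5, 13.8, 13.4 and 19.6 CPM in treated Nj pups. Only treated Nj 5, a Ttr-rich library, reached the untreated range. All 10 heavy chains had negative log2 changes, from -0.47 to -0.03, as did both intermediate chains, Dnai2 at -0.62 and Dnai1 at -0.33. So did all 3 central apparatus genes, from -0.32 to -0.22, the 3 Drc genes and both ruler genes. Other roles were mixed. The 25 Cfap genes were 14 negative and 11 positive, the radial spoke genes 4 and 2, and the tektins 3 and 2. Over all genes 49.7% were negative. The members vary together, so these signs are not independent. Cfap36 was the member with an unadjusted p under 0.05 that was higher, at 0.18 (SE 0.07, adjusted p = 0.143). Tekt3 stood at 0.676, 0.836, 0.973, 1.00 and 1.15 CPM in treated Nj pups, below the untreated range, which was so for 3.39% of all genes. It did not pass (log2 -0.48, adjusted p = 0.159).

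Without the Ttr-rich libraries, 4 untreated and 3 treated Nj libraries remained for this comparison, and 4 members were lower past the threshold, beside 0.419% of all genes. They are named after their values were seen: Dnai2 (log2 -1.02, SE 0.23, adjusted p = 0.0467), Drc7 (-0.74, SE 0.16, 0.0396), Dnah1 (-0.58, SE 0.11, 0.0327) and Cfap44, a tether protein of inner arms (-0.56, SE 0.11, 0.0321). In those libraries Dnah1 stood at 15.9, 20.2, 23.0 and 19.5 CPM without and 11.9, 13.8 and 13.4 CPM with light. Treated Nj 5, which had reached the untreated range, is among the libraries left out. How many of all genes would separate in this smaller set was not computed. The members' median was then -0.22, with 45 negative and 12 positive. DESeq2 on all libraries called 3 members lower, Tsnaxip1, Drc7 and Dnah1, beside 4.45% of all genes. With the choroid plexus score as a covariate, edgeR called 2, Tsnaxip1 and Dnah1, beside 3.23% of all genes, and the median was -0.17. With the meninges score as a covariate it called Tsnaxip1 and Drc7, beside 2.37%. The choroid plexus list had a median change of 0.32, the opposite sign to the members, and its summed level ran from 71.6 to 4489 CPM in treated Nj pups. Meningeal genes had a median of -0.22, and apart from the fit with the meninges score their part was not tested.

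**Figure D4:**
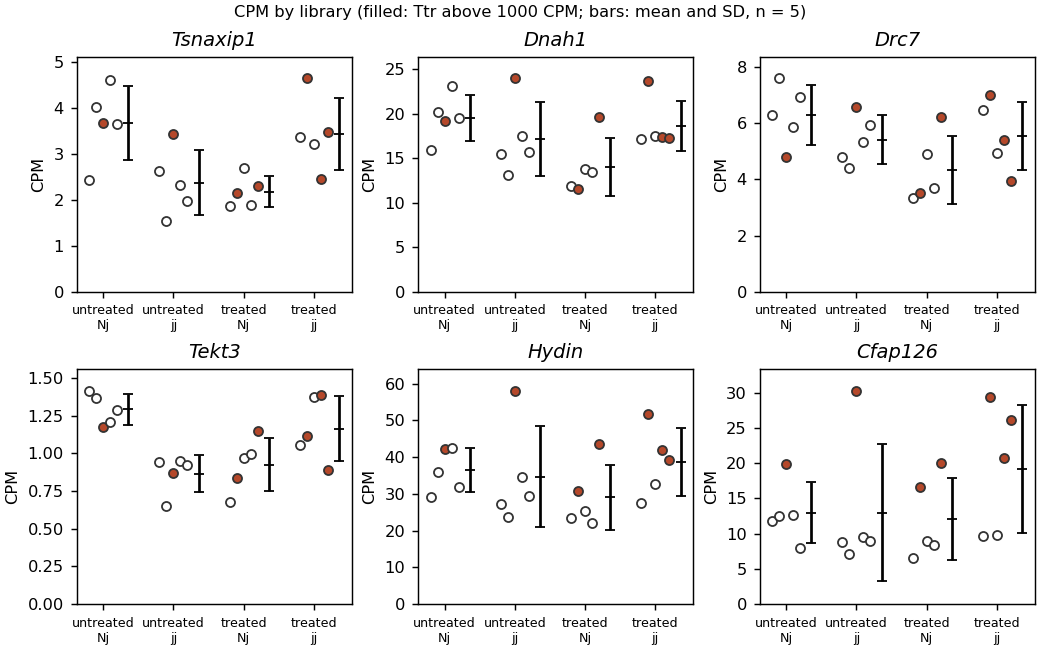
CPM (vertical axis, from 0) of 6 members in each library by group; filled points have Ttr above 1000 CPM and bars give the mean and SD of 5 libraries. Tsnaxip1 is lower in treated than in untreated Nj pups, while Hydin and Cfap126 are high in filled points of every group.

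Treated and untreated jj pups were compared to ask what light goes with in jaundiced animals. Again title prefix differs between the groups and cannot be told apart from light. No member passed: 0 of 57 were called by edgeR, beside 0.164% of all genes, and 0 by DESeq2, beside 2.26%. The members' median log2 change was 0.16, with 53 positive and 4 negative, against -0.00072 over all genes. At an unadjusted p under 0.05 there were 6 members higher and 0 lower, beside 5.64% higher over all genes. The 5 with the lowest p, none passing, were Ccdc39, Tsnaxip1, Cfap69, Spag17 and Drc1.

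Ccdc39, part of the ruler that sets the repeat of arms and spokes along the axoneme, stood at 20.9, 22.2, 19.4, 21.7 and 20.8 CPM in untreated jj and at 23.0, 28.9, 24.0, 23.3 and 23.3 CPM in treated jj pups. Those ranges did not overlap, which held for 1 of 57 members and for 1.27% of all genes in that direction. The log2 change was 0.22 (SE 0.08, edgeR adjusted p = 0.195). Tsnaxip1 stood at 2.63, 1.53, 3.43, 2.32 and 1.98 CPM in untreated jj and at 3.37, 4.65, 3.22, 2.47 and 3.47 CPM in treated jj pups, with overlap (log2 0.53, SE 0.20, adjusted p = 0.257). Drc1, the scaffold of the nexin-dynein regulatory complex, stood at 11.9, 9.25, 19.97, 9.38 and 11.8 CPM in untreated jj and at 13.3, 23.5, 14.4, 16.3 and 14.7 CPM in treated jj pups. The ranges overlapped, as the Ttr-rich untreated jj 3 was above every treated library but treated jj 2. The log2 change was 0.40 (SE 0.19, edgeR adjusted p = 0.376).

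Choroid plexus genes had a median change of 0.95 here, with 18 of 20 positive, and their summed level ran from 128 to 8599 CPM in treated jj pups. Apart from the fits given next, their part in the result was not tested. With the choroid plexus score as a covariate the members' median was 0.04, with 38 positive. Without the Ttr-rich libraries, which leaves 2 treated jj pups, it was 0.11, with 41 positive. Leaving out treated jj 2 alone gave 0.07 and leaving out untreated jj 3 alone 0.29. Meningeal genes had a median of -0.71.

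The comparison of jj with Nj pups that both received light lies within a single title prefix. No member passed in treated pups: 0 of 57 by edgeR and by DESeq2, beside 0% of all genes by edgeR and 0.00878% by DESeq2. The members' median log2 difference was 0.26, with 52 positive and 5 negative, against 0.00 over all genes. At an unadjusted p under 0.05 there were 11 members higher and 0 lower, beside 3.79% higher over all genes. By lowest p they began with Tsnaxip1 (log2 0.65, SE 0.20), Tekt4 (0.64, SE 0.22), Spag17 (0.41, SE 0.15), Dnai1 (0.40, SE 0.15) and Dnah1 (0.40, SE 0.16), each with an edgeR adjusted p of 0.724.

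Tekt4, a further tektin, stood at 1.72, 1.72, 1.86, 1.70 and 2.73 CPM in treated Nj and at 2.00, 4.79, 2.76, 2.93 and 2.67 CPM in treated jj pups. Only treated Nj 5 among the treated Nj libraries reached the jj range. Spag17, a central apparatus protein, stood at 4.27, 4.49, 5.48, 4.30 and 6.93 CPM in treated Nj and at 6.62, 8.62, 5.56, 6.78 and 6.29 CPM in treated jj pups, again with treated Nj 5 inside the jj range. The choroid plexus list was 20 of 20 positive with a median of 0.91. Apart from the fits given next, its part in the result was not tested. The members' median was 0.16 with the choroid plexus score as a covariate, 0.12 without the Ttr-rich libraries and 0.13 without treated jj 2 alone.

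The interaction, the light effect in jj minus the light effect in Nj pups, tests whether light went with different changes in the 2 genotypes. It called 0 of 57 members and 0% of all genes by edgeR, and 0 members and 0% of genes by DESeq2. The median over the members was 0.31, with 52 positive and 5 negative, against 0.00 over all genes, and 10 members had an unadjusted p under 0.05, all positive, beside 1.67% of all genes in that direction. Tsnaxip1 had the lowest p among the members, with a value of 1.27 (SE 0.28, edgeR adjusted p = 1.00). It was positive in each of 20 fits that left out a library, from 1.14 to 1.44, with adjusted p from 0.145 to 1.00. The next were Tekt3 at 0.89 (SE 0.27), Dnah6 at 0.62 (SE 0.20), Dnah1 at 0.59 (SE 0.22) and Spag17 at 0.53 (SE 0.21). The median was 0.30 without the Ttr-rich libraries and 0.23 with the choroid plexus covariate, while choroid plexus genes themselves had a median of 0.58. The 5 comparisons share their groups, so their values are not separate evidence of a pattern.

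**Figure D5:**
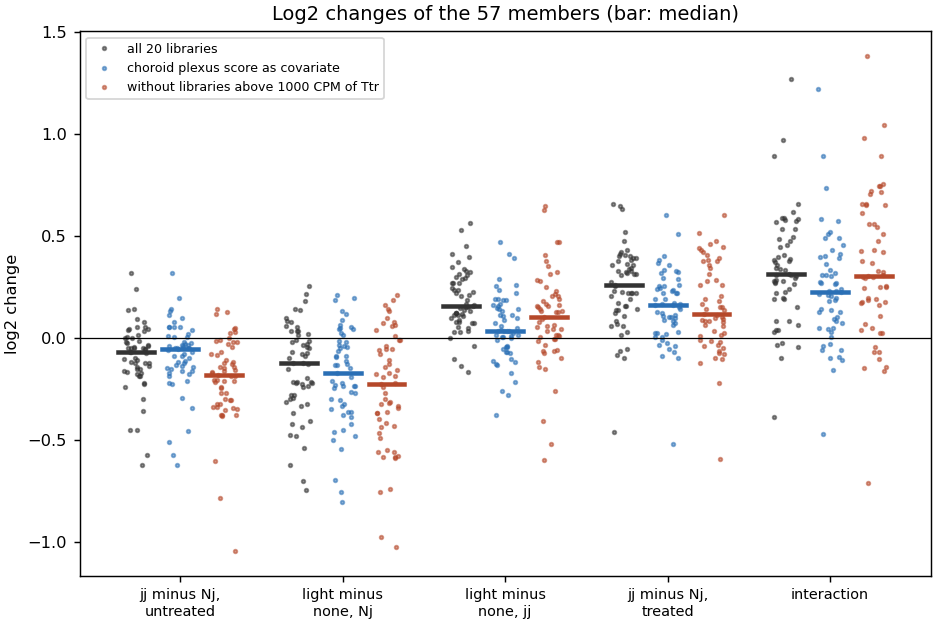
Log2 change of each of the 57 members (points) and their median (bars) in the 5 comparisons, from all 20 libraries, with the choroid plexus score as a covariate, and leaving out the 7 Ttr-rich libraries. Medians are below 0 in the first 2 comparisons and above 0 in the other 3 under each of the 3 fits.

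The members known as widely expressed, Cfap20, Cfap36, Cfap97, Cfap298 and Cfap410, stood nearer to 0 than the rest. Their median differences were -0.03, 0.05, 0.08, 0.01 and 0.03 for genotype without light, light in Nj pups, light in jj pups, genotype under light and the interaction, in that order. The other 52 members had -0.07, -0.17, 0.18, 0.31 and 0.34. No test compared the sets.

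Genes that work with the axoneme were followed through lists outside the rule, and edgeR called 0 of 107 genes in 4 cilia lists in each comparison, while DESeq2 called 1, the BBSome gene Bbs9, lower with light in Nj pups (log2 -0.21, SE 0.06, DESeq2 adjusted p = 0.0252, edgeR adjusted p = 0.0556; named after its value was seen). For genotype without light, at an unadjusted p under 0.05, edgeR had 0 of the 107 higher and 4 lower, beside 3.69% and 2.67% of all genes. For light in Nj pups there were 4 higher and 10 lower, beside 8.25% and 9.89%, so neither share was above that of all genes. For light in jj pups there were 9 and 3, beside 5.64% and 7.31%. For genotype under light there were 7 and 4, beside 3.79% and 2.83%, and for the interaction 7 and 0, beside 1.67% and 1.74%. The 36 tested of 41 further ependymal and axoneme genes had medians of -0.06, -0.10, 0.17, 0.24 and 0.32 in the same order. The 16 tested of 24 dynein arm assembly and docking genes had -0.06, -0.16, 0.14, 0.33 and 0.46. Lrrc6, an arm assembly factor, had the lowest p of these for light in jj pups (log2 0.67, SE 0.23, edgeR adjusted p = 0.210). The 40 tested of 41 intraflagellar transport and BBSome genes had medians between -0.03 and 0.04. Single genes of that list ran from -0.28, for genotype without light, to 0.26, for the interaction.

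The 15 tested of 19 genes of the multiciliation programme, which starts the making of many centrioles in a cell, had medians of -0.04, -0.16, -0.01, 0.09 and 0.19. For light in Nj pups the lowest p among them belonged to Foxn4, a transcription factor of multiciliated cells (log2 -1.15, SE 0.35, edgeR adjusted p = 0.0672), Mcidas, a coactivator that starts the programme (log2 -0.95, SE 0.33, adjusted p = 0.111), and Ccno, a cyclin-like protein of centriole amplification (log2 -0.69, SE 0.28, adjusted p = 0.180). None passed. All lay low: Foxn4 at 1.31 ± 0.49 CPM (SD, n = 5) without and 0.578 ± 0.256 with light, Mcidas at 0.728 ± 0.255 and 0.368 ± 0.0405, and Ccno at 2.501 ± 0.646 and 1.54 ± 0.30.

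Among 14 genes of radial glia, from which ependymal cells arise, 3 fell with light in Nj pups, beside 2.51% of all genes: Nes, an intermediate filament protein, by 0.55 on the log2 scale (edgeR adjusted p = 0.00596), Tnc, a matrix protein, by 0.48 (adjusted p = 0.00126), and Notch1, a receptor, by 0.24 (adjusted p = 0.0277). Tnc also fell by 0.44 with light in jj pups (adjusted p = 0.0141), the only gene of the 14 to do so, beside 0.124% of all genes. The median over the 14 was -0.16 in Nj and -0.05 in jj pups. Whether these changes differed between the genotypes was tested by the interaction, in which edgeR called 0 of the 14, also 0 at an unadjusted p under 0.05.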

How the data were processed

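The authors deposited raw read counts for 32883 rat Ensembl genes in 20 libraries. Per the submitters' processing notes, FastQC, TopHat2 2.0.13, Subread and edgeR were used; the notes name build mm10, a mouse genome, while the identifiers are of rat, so no coordinates are taken from the counts. Whether strand was used in counting is not given in the sources used here; overlapping antisense genes cannot be told apart. Counts were tested with edgeR 4.0.16 (R 4.3.3, limma 3.58.1): filterByExpr, TMM, robust quasi-likelihood fit of 4 group means with legacy estimates, two-sided, Benjamini-Hochberg adjustment over 15272 genes, threshold 0.05. SE is the log2 change divided by the square root of F. CPM use TMM-scaled totals; log2 CPM add a prior count of 1. DESeq2 1.42.0, other scalings and filters, covariates and leaving out libraries were alternatives. The pipeline was tested on simulated counts. P-values weigh a difference between groups against the spread of libraries within groups. Untreated jj and both treated groups each hold a single title prefix, so that spread holds no variation between prefixes there. The labels do not say how pups relate by litter. Named were, per role, the member with the highest mean count, members past the threshold or else the 5 with the lowest p in a comparison, those next to the count limit, called genes of the lists, and the 10 genes most like the members; exceptions are stated. Members and lists were chosen with earlier results of these data known.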

Additional observations from a re-analysis of the deposited data

Results flagged for a closer look

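A library stood apart from the other 4 of its group, by Dixon's 95% criterion, in 27 of 228 combinations of member and group. For independent values chance alone gives about 1 in 20. The members vary together, so this count cannot be set against that share. Among the named members, untreated jj 3, a Ttr-rich library, was high for Dnah9 at 49.0 CPM (next 35.5), Rsph9 at 39.2 (next 30.0), Cfap69 at 22.1 (next 16.8), Drc1 at 19.97 (next 11.9) and Tekt1 at 15.3 CPM (next 10.1). It was also high for the mean log2 CPM of all members, 3.40 against at most 2.90 in the rest of its group. Treated jj 2, also Ttr-rich, was high for Ccdc39 at 28.9 CPM (next 24.0) and Dnah1 at 23.7 CPM (next 17.5). Treated Nj 5, Ttr-rich as well, was high for Dnah1 at 19.6 CPM (next 13.8) and Tekt4 at 2.73 CPM (next 1.86). Tekt3 was low in untreated jj 2, at 0.648 CPM (next 0.870).

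The choroid plexus genes Ttr, Kl and Folr1 stood apart in untreated jj 3, at 9662, 94.6 and 79.1 CPM, and in untreated Nj 3, at 4111, 50.5 and 44.9 CPM.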

How the results depend on the processing

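For light in Nj pups the count of members called was 1, and it moved to 3 with DESeq2, 4 without the libraries above 1000 CPM of Ttr, 2 with the choroid plexus covariate and 2 with the meninges covariate. Leaving out each library in turn gave 0 to 3. For the other 4 comparisons the count was 0 in every alternative run. The members' median kept its sign in 106 of 106 alternatives. The 21 members with a positive choroid plexus slope became 0 without the libraries above 1000 CPM of Ttr and 9 without untreated jj 3 and treated jj 2, with 12 to 25 when libraries were left out in turn; these alternatives were chosen after seeing the data. The cause was not tested. No paired analysis was possible because no label pairs pups between groups. Members near the count limit, such as Cfap157 with a mean count of 14.6, are limited by depth.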
